A study of Arabidopsis thaliana with 16 samples.

Results

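Photosystem I and photosystem II, the pigment-protein complexes of the thylakoid membrane, carry out the light reactions of photosynthesis, and a family of chlorophyll a/b-binding proteins forms the antennae that feed them with excitation energy. The main reaction centre proteins are encoded in the chloroplast, while the antenna proteins (LHCA at photosystem I, LHCB at photosystem II) and many of the smaller subunits (PSA and PSB) are encoded in the nucleus, made in the cytosol and carried into the chloroplast by an N-terminal transit peptide that is then cut off. Their mRNAs are among the most abundant of a green leaf. Of 43 listed nuclear loci of this kind, 32 were found in the mRNA structure tables, which hold 10637 genes and 15145 transcripts. The loci were chosen by name and not by a measured value. The members comprised 8 of 9 genes of the major antenna of photosystem II (LHCII), 3 of 5 of its minor antennae, 5 of 6 of the photosystem I antenna (LHCI), 9 of 12 photosystem I subunits, 4 of 6 genes of the oxygen-evolving side of photosystem II, the gene for PSBS (NPQ4), and 2 of 4 small photosystem II subunits.

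The RNA came from nuclei of 4-week-old rosette leaves of the Arabidopsis thaliana line UBQ10:NTF/ACT2p:BirA in the Columbia-0 ecotype. Control- and salt-treated plants both carry this transgene pair, which tags the nuclear envelope with biotin under ubiquitously active promoters, so the nuclei of all leaf cell types were pooled. Salt treatment was a prolonged watering with NaCl at rising concentration, and there were 2 biological replicates per condition with 4 libraries each, 16 in all. In protein interaction profile sequencing (PIP-seq), RNA is digested with a single-strand (ssRNase) or a double-strand nuclease (dsRNase), with bound proteins in place (footprinting) or after their removal (structure-only). Protein protected sites (PPSs) are stretches enriched in footprinting over structure-only libraries. The structure score of a base is a log ratio of reads from double-stranded over single-stranded RNA, set against the average of all spliced bases of that mRNA, so that a positive score means more paired than the rest of the same mRNA. Because of that scaling, a score says where in an mRNA the structure lay and not how structured the mRNA was as a whole, and a rise in one region is balanced by a fall in another.

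The structure scores were merged over replicates before deposit, so each region had 1 value per condition, no replicate error and no test. Each condition was averaged over its own scored bases, so the control and salt means of a region can cover different bases. A difference of at least 0.5 was counted as called. The PPS lists gave 1 value per replicate, and with 2 lists against 2 no two-sided exact p could fall below 0.333, so none is given. The files hold no expression levels, so the tissue could not be checked by its markers.

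Of 9 windows along these mRNAs, the first 100 nt of the coding sequence (CDS), which encode much of the transit peptide, had the highest median structure score, and the single stretches with the highest scores were rich in C. The median score there was 0.30 in control- and 0.38 in salt-treated tissue over the 32 members, against 0.05 and 0.09 over 9580 genes. It was above 0 in 18 of the 32 mRNAs (56.3%) with control and in 27 (84.4%) with salt, where 52.2% and 55.0% of all genes were above 0. The same 100 nt held a median of 33.5% C in the members, against 22% over all genes. The following sequences show the most structured 30 bases of the CDS in both conditions in 4 of the 5 LHCB1 genes (CAB2, AT1G29920; CAB3, AT1G29910; CAB1, AT1G29930; LHB1B2, AT2G34420), which encode the most abundant LHCII protein, 5′ to 3′ with every C in capitals. They began at base 10 or 13 of the CDS in the TAIR10 genome.
CAB2: aCaatggCtCtCtCCtCCCCtgCtttCgCC
CAB3: tCCaCaatggCtCtCtCCtCCCCtgCCttC
CAB1: tCaaCaatggCtCtCtCCtCCCCtgCCttC
LHB1B2: aCCatggCtttgtCCtCCCCtgCCttCgCC

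The CAB2 stretch (chr1:10475851-10475880, minus strand) had a mean score of 1.02 in control- and 1.03 in salt-treated tissue. That of CAB3 (chr1:10473208-10473237, minus strand) scored 1.92 and 1.97. That of CAB1 (chr1:10478080-10478109, plus strand) scored 0.61 and 0.62. That of LHB1B2 (chr2:14523472-14523501, minus strand) scored 0.88 and 0.85. In the remaining copy, LHB1B1 (AT2G34430), the most structured stretch lay further on, at bases 114 to 143 of the CDS, with 1.33 and 1.35. These windows were picked for their scores, so their height is a description of the rule and not a finding.

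The least structured 30 bases of 4 of the 7 LHCB1 and LHCB2 mRNAs lay at neighbouring places of the CDS, and held more G than C. They are shown in the same way for 2 LHCB1 and 2 LHCB2 genes (LHCB2.1, AT2G05100, and LHCB2.2, AT2G05070), the latter encoding the LHCII protein whose phosphorylation is central to state transitions.
CAB3: aagttCggagaggCggtttggttCaaggCC
LHB1B1: ggagtgaagttCggagaagCggtttggttC
LHCB2.1: tgttaaattCggagaagCCgtgtggttCaa
LHCB2.2: tgtggttCaaggCaggCtCtCagattttCt

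In the other 3 mRNAs they began close by (base 405 in LHB1B2) or further away (496 in CAB2 and 770 in CAB1), and that of CAB1 held 11 C and 7 G. The 4 shown began at base 373 of the CDS in CAB3 (chr1:10472845-10472874, minus strand), 364 in LHB1B1 (chr2:14525181-14525210, plus strand), 366 in LHCB2.1 (chr2:1823852-1823881, minus strand) and 386 in LHCB2.2 (chr2:1799819-1799848, minus strand). The CAB3 stretch scored -0.73 in control- and -0.57 in salt-treated tissue. Scores were -0.72 and -0.84 in LHB1B1, -0.52 and -0.52 in LHCB2.1, and -0.38 and -0.43 in LHCB2.2. Over all 32 members, the most structured 30 bases held a median of 10 C and 5 G, and the least structured held 5 C and 10 G. More C than G was found in 25 of the 32 most structured stretches (78.1%), against 49.4% of the same stretches over 9985 genes. More G than C was found in 29 of the 32 least structured stretches (90.6%), against 83.5% over all genes, so the G-rich troughs were common to most mRNAs. Base by base, C scored above the mean of its own CDS in 28 members with control and 29 with salt treatment, and G in 2 and 3. These counts (87.5% and 90.6% for C, 6.25% and 9.38% for G) were at the level of all genes, with 86.9% and 89.3% for C and 6.70% and 10.4% for G. The median offset of C was 0.05 and 0.08 in the members and 0.12 and 0.12 over all genes.

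The same stretches are shown for 2 photosystem II genes outside the antenna. They too were picked for their scores, so the gap between them follows from the rule and is not a finding. PSBY (AT1G67740), a small subunit beside cytochrome b559, and PSBO1 (AT5G66570), which shields the manganese cluster that splits water, had these most and least structured 30 bases.
PSBY, most structured: CaaCCaagtgCatgtCtCtaaaCCCatCtC
PSBY, least structured: aaCCaggtCaaCaagatgCgtgagagtaaa
PSBO1, most structured: atgCtgCagtCaCagtCCaaCttCCaggag
PSBO1, least structured: ggagaCgaggaggagCttgtaaaggagaaC

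In PSBY the first stretch (chr1:25394947-25394976, minus strand) scored 2.20 in control- and 2.27 in salt-treated tissue and the second (chr1:25394648-25394677, minus strand) scored -1.16 and -2.05. In PSBO1 the first stretch (chr5:26569712-26569741, plus strand) scored 1.11 and 0.79 and the second (chr5:26569918-26569947, plus strand) -1.67 and -1.46. The least structured PSBO1 stretch held 13 G and 3 C.

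**Figure D1:**
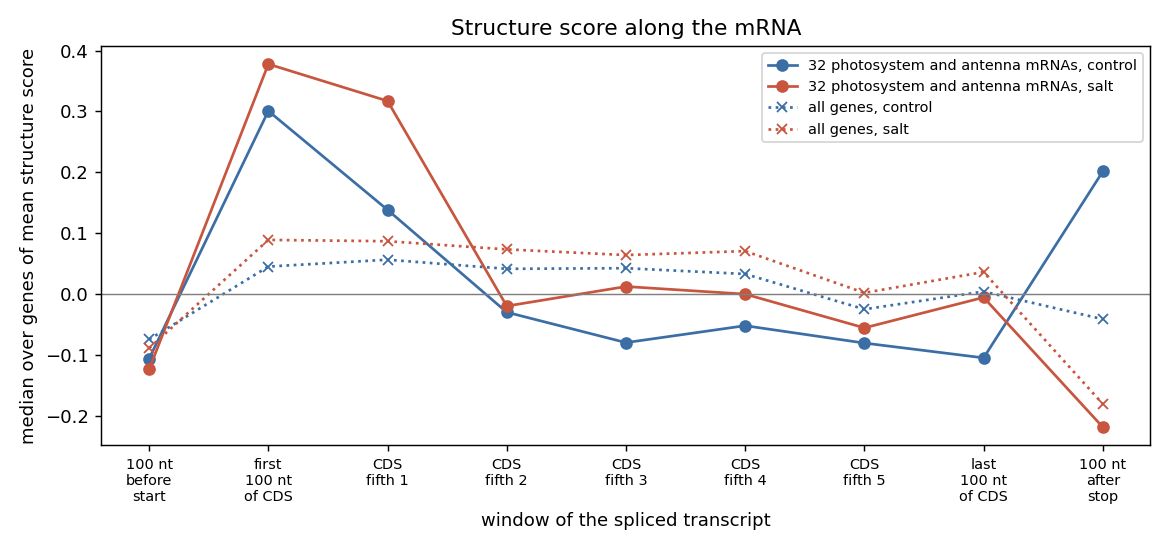
Median over genes of the mean structure score (vertical axis, log ratio scaled to the transcript) in 9 windows of the spliced mRNA (horizontal axis), with solid lines for the 32 photosystem and antenna mRNAs, dotted lines for all genes, blue for control and red for salt. The first 100 nt of the CDS stand highest in the members in both conditions, at 0.30 and 0.38, and the 100 nt after the stop codon go from 0.20 in control to -0.22 in salt.

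Along the rest of the CDS the members' median scores were lower at its end than at its start, with the CDS cut into 5 equal parts. In control-treated tissue the median was 0.14 in the first part and -0.08 in the last, and in salt-treated tissue 0.32 and -0.06. Over all genes the same medians were 0.06 and -0.02 with control and 0.09 and 0.0021 with salt treatment. Within the first 100 nt, 22 of 32 members were higher in salt, 7 of them (21.9%) by at least 0.5, and 5 (15.6%) were lower by as much, beside 30.4% and 27.3% of all genes. Both shares were below those of all genes. The widest gap between conditions was that of Lhca6, with -2.10 in control- and 1.18 in salt-treated tissue, and Lhca6 was also the member with the fewest scored bases, 67.3% in control. PSAD-2 had the largest fall, from 1.38 to -0.54, followed by PSAG (1.87 and 0.04) and CAB3 (2.44 and 0.96). NPQ4 went up from -0.07 to 1.64. In the 100 nt after the stop codon, 14 members (43.8%) were called lower and 6 (18.8%) higher, beside 37.3% and 29.3% of all genes. In the 100 nt before the start codon, 6 of 26 were called higher and 7 lower, beside 32.7% and 33.1%, and in the last 100 nt of the CDS 4 and 5 of 32, beside 31.1% and 28.8%.

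With the regions taken whole, structure in salt-treated tissue lay more in the CDS and less in the 3′ UTR. The median difference (salt minus control) of the 32 members was 0.11 in the CDS and -0.24 in the 3′ UTR. Over all genes it was 0.02 in the CDS (9988 genes) and -0.11 in the 3′ UTR (9688 genes). In the CDS, 23 of 32 members (71.9%) were higher in salt, against 55.4% of all genes. No member reached a CDS difference of 0.5 in either direction, where 2.18% of all genes were called higher and 1.46% lower. In the 3′ UTR, 22 of 32 members (68.8%) were lower in salt, against 57.2% of all genes. Of these, 13 (40.6%) were called lower and 6 (18.8%) of the members were called higher, against backgrounds of 32.5% and 21.4%. Both shares in the 3′ UTR were close to those of all genes. With the median over the bases of a region in place of the mean, the median 3′ UTR difference of the members was -0.48.

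The CDS scored higher than the 3′ UTR of the same mRNA in 15 of 32 members with control and in 22 with salt treatment, with median contrasts (CDS minus 3′ UTR) of -0.10 and 0.31. Over 9358 genes the contrast was 0.13 and 0.32, so the members stood below all genes in control- and close to them in salt-treated tissue. In 11 members (34.4%) the higher region changed from the 3′ UTR in control to the CDS in salt, and in 4 (12.5%) it changed in the opposite direction. The shares over all genes were 24.7% and 15.5%. In the 3′ UTR the gene strand made little difference, with median differences of -0.26 over 15 members on the plus strand and -0.22 over 17 on the minus strand. The medians on the plus and minus strands were 0.07 and 0.14 in the CDS, and 0.0078 and 0.25 in the 5′ UTR (13 members each).

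The 5′ UTR had too few scored bases to be read as firmly. The median member had scores at 56.4% of its 5′ UTR bases in control- and 59.2% in salt-treated tissue, and 26 of 32 members passed the filter of 30 scored bases in both conditions. Their median difference was 0.06, with 8 called higher and 8 called lower (30.8% each), beside 29.2% and 29.4% of all genes. Where 80% of a 5′ UTR had to be scored in both conditions, 2 members were left.

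**Figure D2:**
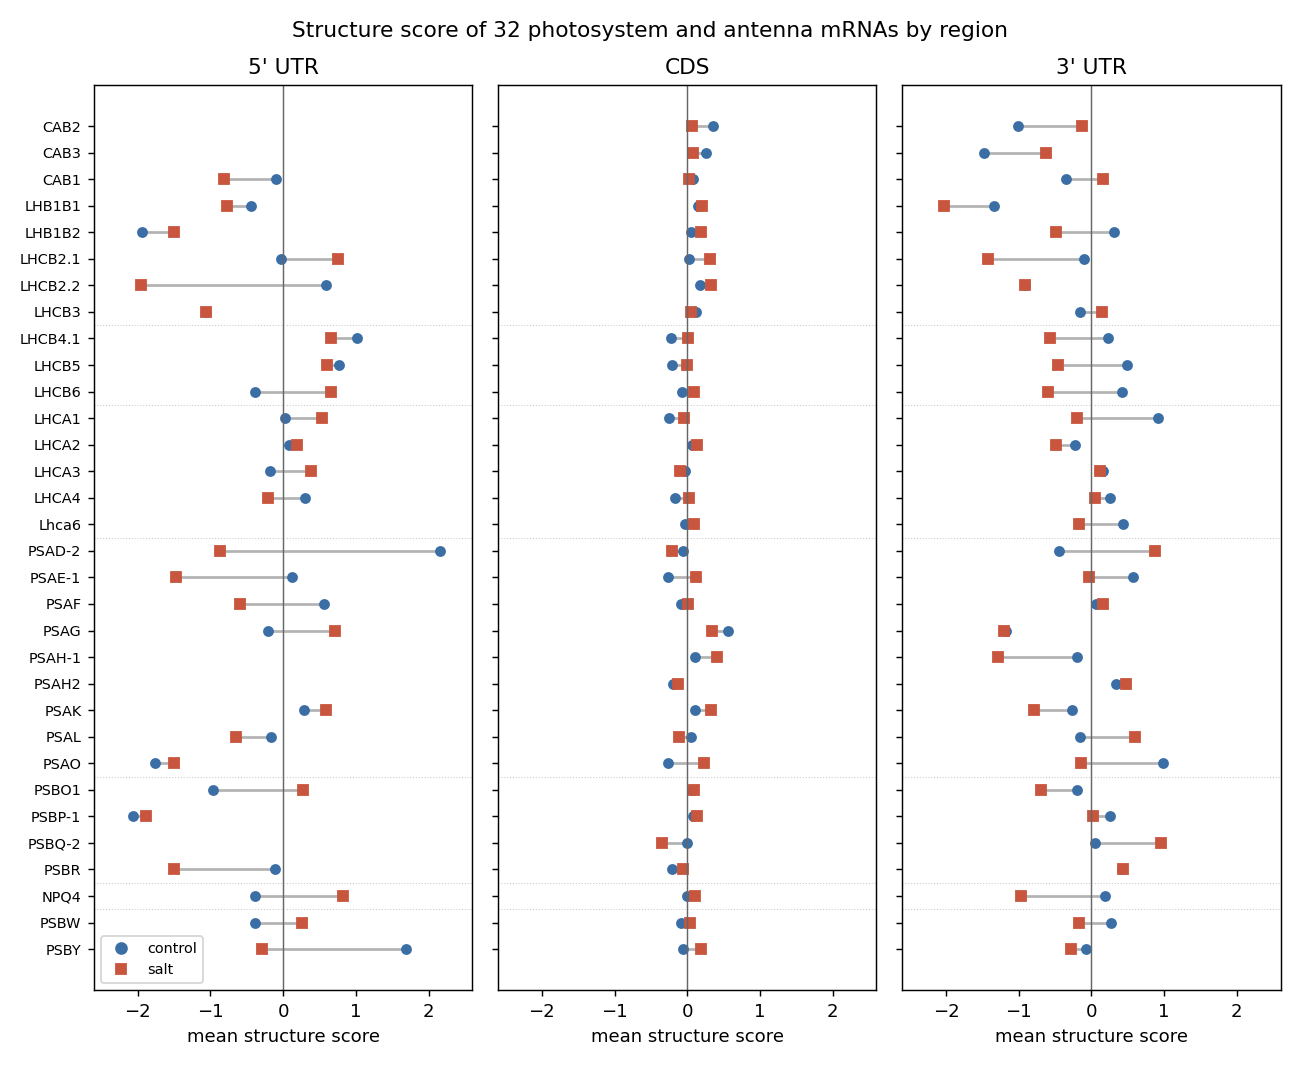
Mean structure score (horizontal axes, log ratio scaled to the transcript) of the 5′ UTR, CDS and 3′ UTR of each of the 32 mRNAs (rows, in the order of their protein classes), with blue circles for control and red squares for salt, each 1 value from merged replicates. CDS values stay close to 0, where the scaling holds a region that makes up most of an mRNA. UTR values of single genes lie up to 3.02 apart, and the 3 minor antenna genes shift to lower 3′ UTR scores in salt.

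The major antenna genes did not move together. Of the 8 LHCII genes, 4 had a higher and 4 a lower 3′ UTR score in salt, and the CDS split in the same way. The 3 LHCB1 genes that neighbour each other on chromosome 1 (CAB1, CAB2 and CAB3) all had higher 3′ UTR scores in salt. CAB2 went from -1.01 to -0.12, CAB3 from -1.48 to -0.62 and CAB1 from -0.35 to 0.16. The 2 copies on chromosome 2 went down, LHB1B1 from -1.34 to -2.03 and LHB1B2 from 0.31 to -0.48. In the CDS, CAB2 went from 0.35 to 0.06, CAB3 from 0.26 to 0.08 and CAB1 from 0.08 to 0.03, and the chromosome 2 copies were at 0.15 and 0.20 (LHB1B1) and at 0.05 and 0.19 (LHB1B2). The 5′ UTR of CAB1 scored -0.10 in control- and -0.82 in salt-treated tissue, that of LHB1B1 -0.44 and -0.77 and that of LHB1B2 -1.94 and -1.50, while CAB2 and CAB3 did not pass the filter there.

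The LHCB2 pair also differed. By region means LHCB2.1 had the largest fall of any member in the 3′ UTR, from -0.10 to -1.42. By medians over bases it fell by 0.88, less than NPQ4, Lhca6, PSAH-1 and PSAO among others. In the same means, its 5′ UTR went from -0.04 to 0.75 and its CDS from 0.03 to 0.32. LHCB2.2 stood at -0.91 in the 3′ UTR in both conditions, and went from 0.59 to -1.96 in the 5′ UTR and from 0.18 to 0.32 in the CDS. LHCB3 (AT5G54270), the third component of LHCII trimers, had a 5′ UTR at -1.06 in both conditions and a 3′ UTR at -0.15 and 0.15.

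The copies of LHCB1 and LHCB2 share long identical stretches, and reads could be placed at several loci, so their values are not independent of each other. Of all 32-nt stretches in the spliced mRNA, between 28.5% (LHB1B2) and 41.7% (LHCB2.2) occurred elsewhere in the genome in these 7 genes. The share was 22.2% in LHCA2, at most 0.54% in 3 others and 0 in the other 21 members. Only exact matches were counted, and the mapping allowed mismatches, so a share of 0 does not mean that every read had a single place. The CDSs of the 10 LHCB1 pairs were 87.4 to 96.4% identical. The r of their scores at aligned bases ran from -0.13 to 0.49 in control-treated and from -0.13 to 0.39 in salt-treated tissue. The lowest r of each condition was that of a pair with 87.4% identity. Among CAB1, CAB2 and CAB3, the closest copies, r ran from 0.18 to 0.43 in control and from 0.30 to 0.36 in salt. With merged replicates there was no r between replicates to set beside these values. LHCB2.1 and LHCB2.2, at 96.6% identity, had an r of 0.14 in control- and 0.76 in salt-treated tissue. The PSAH pair, 87.0% identical, had an r of 0.05 and -0.18. These r values are across neighbouring bases, which are not independent of each other.

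**Figure D3:**
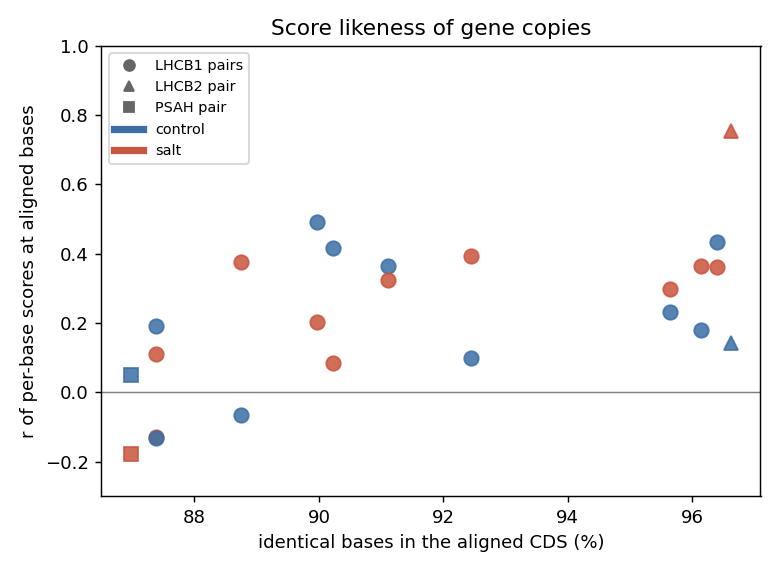
Pearson r of per-base structure scores of 2 gene copies (vertical axis) against the percent of identical bases in their aligned CDSs (horizontal axis), with circles for the 10 LHCB1 pairs, a triangle for the LHCB2 pair, a square for the PSAH pair, blue for control and red for salt. The LHCB2 pair in salt stands alone at 0.76, and no other pair exceeds 0.49.

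The 3 minor antenna genes LHCB4.1 (AT5G01530), LHCB5 (AT4G10340) and LHCB6 (AT1G15820) encode monomeric proteins that link LHCII trimers to the photosystem II core, and they showed the same pattern. All 3 had a CDS score below 0 under control and above 0 under salt treatment, and a 3′ UTR score above 0 that fell below 0 in salt. The scaling ties these shifts to each other. Lhca6, PSAE-1, PSAO, NPQ4 and PSBW changed sign in the same way, so the pattern was not particular to the minor antennae. Over all genes, the higher region changed from the 3′ UTR to the CDS in 24.7%. In the 3′ UTR, LHCB4.1 went from 0.22 to -0.57, LHCB5 from 0.49 to -0.46 and LHCB6 from 0.42 to -0.60. In the CDS, LHCB4.1 went from -0.22 to 0.01, LHCB5 from -0.21 to 0.0012 and LHCB6 from -0.07 to 0.09. In the 5′ UTR, LHCB6 went from -0.38 to 0.65.

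The 5 LHCI genes, whose products form the antenna belt of photosystem I, were lower in salt in the 3′ UTR without exception. Over all genes 57.2% were lower. Of the 5, 2 (40%) were called lower, beside 32.5% of all genes. LHCA1 (AT3G54890) went from 0.92 to -0.20, a difference of -1.11 that was -0.49, short of a call, with the isoform that has the most scored bases. The other was Lhca6 (AT1G19150), which serves the link between photosystem I and the NDH complex and went from 0.44 to -0.16. Of the 173 nt of its 3′ UTR, 50 were scored in control and 69 in salt. LHCA2 (AT3G61470) went from -0.22 to -0.48, LHCA4 (AT3G47470) from 0.25 to 0.05 and LHCA3 (AT1G61520) from 0.16 to 0.12. The CDS was higher in salt in 4 of the 5, beside 55.4% of all genes, the exception being LHCA3 (-0.03 and -0.10). In the 5′ UTR, LHCA1 went from 0.03 to 0.54, LHCA3 from -0.18 to 0.38 and LHCA4 from 0.30 to -0.21. The LHCA3 difference was -0.16 with its other isoform.

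Among the 9 photosystem I subunits, PSAD-2 (AT1G03130) stood out. Its product forms the stromal docking site of ferredoxin together with PSAE. The 5′ UTR of PSAD-2 went from 2.16 to -0.86, the largest fall of any member, and its 3′ UTR from -0.44 to 0.87, the largest rise. PSAE-1 (AT4G28750) went from 0.12 to -1.48 in the 5′ UTR, from 0.58 to -0.03 in the 3′ UTR and from -0.26 to 0.12 in the CDS. PSAH-1 (AT3G16140) and PSAO (AT1G08380) encode subunits of the side of photosystem I where LHCII docks. By region means PSAO had the largest positive CDS difference, from -0.26 to 0.23, and its 3′ UTR went from 0.99 to -0.14. PSAH-1 went from 0.10 to 0.41 in the CDS and from -0.19 to -1.29 in the 3′ UTR. PSAG (AT1G55670), a membrane subunit on the LHCI side, went from 0.56 to 0.34 in the CDS and from -0.20 to 0.71 in the 5′ UTR, and its 3′ UTR was at -1.17 and -1.21. PSAL (AT4G12800), which shares the LHCII docking side, was called higher in the 3′ UTR (-0.15 and 0.61), and PSAK (AT1G30380), a membrane subunit of the opposite side, was called lower (-0.26 and -0.79). PSAF (AT1G31330) was called lower in the 5′ UTR alone (0.57 and -0.59), and PSAH2 (AT1G52230), which had no 5′ UTR value, in neither of its other regions.

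On the oxygen-evolving side of photosystem II, PSBQ-2 (AT4G05180), an extrinsic protein of the lumen, had the largest negative CDS difference of any member by region means, from 0.0006 to -0.35, and its 3′ UTR went from 0.05 to 0.96. PSBO1 had the largest positive 5′ UTR difference by region means, from -0.96 to 0.27. By medians over bases its difference was 0.74, below LHCB2.1 (1.99), LHCB6 (1.96) and NPQ4 (1.79). PSBR (AT1G79040), a protein associated with the oxygen-evolving complex, went from -0.12 to -1.50 in the 5′ UTR, and PSBP-1 (AT1G06680) was called in no region. NPQ4 (AT1G44575), which encodes the lumen pH sensor PSBS of non-photochemical quenching, went from -0.39 to 0.82 in the 5′ UTR and from 0.18 to -0.97 in the 3′ UTR. NPQ4 has 2 isoforms in the tables, and its 3′ UTR difference of -1.15 was -0.59 with the isoform that has more scored bases and -2.43 with the median over bases in place of the mean. PSBY went from 1.68 to -0.29 in the 5′ UTR, and PSBW (AT2G30570), which stabilises photosystem II supercomplexes, from -0.39 to 0.26.

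The profiles of the 2 conditions were only loosely alike base by base. The r of control and salt scores over the bases of an mRNA had a median of 0.28 and ran from -0.09 (PSAH-1) to 0.59 (LHB1B2), against a median of 0.20 over 10637 genes. The members were shorter than most mRNAs, with a median CDS of 775.5 nt against 1125 nt, and their CDSs had a higher GC content, with a median of 51.6% against 44.6%. Their scores spread less from base to base, with a median SD of 1.07 against 1.58 in control- and 1.04 against 1.48 in salt-treated tissue. Scores covered a median of 94.4% and 91.5% of their bases, against 90.1% and 86.7%.

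A further list of 23 nuclear photosynthesis genes outside the photosystems (electron carriers, ATP synthase, regulators, and Rubisco and its activase) had 19 members with scores. There, 14 of 19 (73.7%) were higher in salt in the CDS, and 16 of 18 (88.9%) were lower in the 3′ UTR, with medians of 0.18 and -0.60. Over all genes 55.4% were higher in the CDS and 57.2% lower in the 3′ UTR. In the 3′ UTR, 10 of the 18 (55.6%) were called lower and 2 (11.1%) higher, beside 32.5% and 21.4% of all genes.

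Before the PPSs are described, 2 features of the lists have to be stated. First, the lists shared calls with the same position and the same score. Of 227 distinct calls in the 32 members, 110 (48.5%) were in 2 or more lists, 65 of them on opposite strands in different lists, and 44 were in lists of both conditions. The share over all genes was alike, with 48.2% of 56551 distinct calls in 2 or more lists. The replicates are therefore not independent, and nor are the conditions. Second, the number of calls followed the strand of the gene. The 15 members on the plus strand had 59 and 21 PPSs in control replicates 1 and 2 and 31 and 67 in salt replicates 1 and 2. The 17 members on the minus strand had 54 and 59 in control and 61 and 16 in salt. The same was seen over all genes, where 32.4% of plus-strand and 59.4% of minus-strand genes had a PPS in control replicate 2, and 56.0% and 25.6% in salt replicate 2. PPSs were counted on either strand, and the part of these features in any difference between conditions was not tested.

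**Figure D4:**
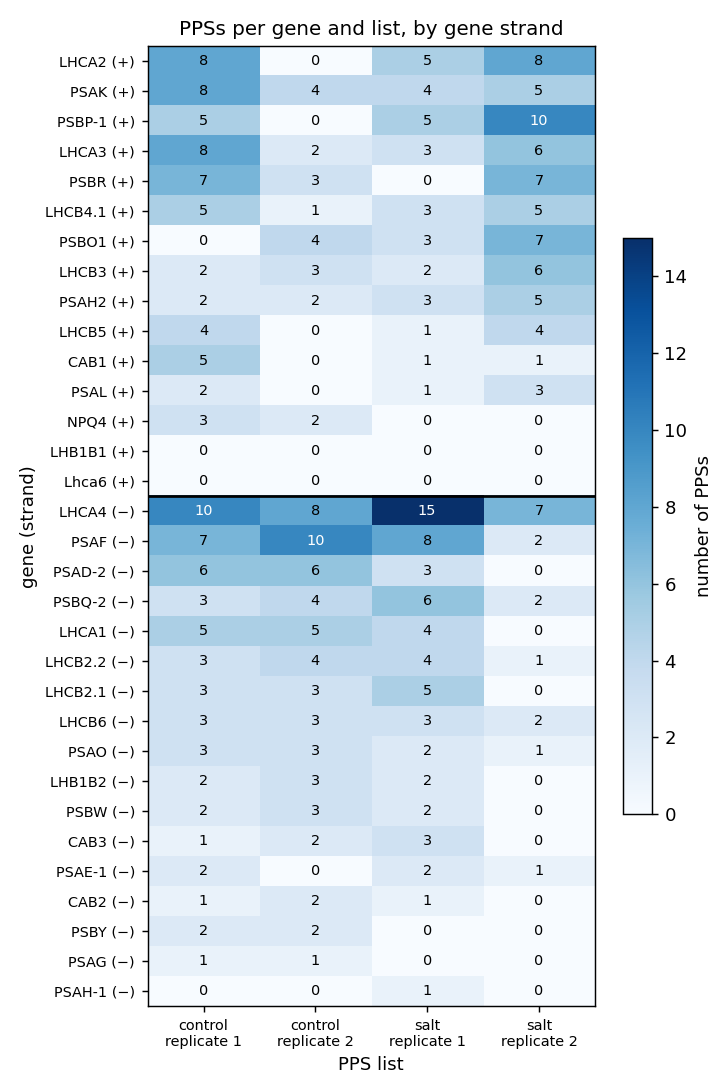
Number of PPSs overlapping each of the 32 genes (rows) in the 4 lists (columns), printed in each cell and shown by its colour, with plus-strand genes above and minus-strand genes below the black line, each sorted by their sum. Salt replicate 2 has 16 PPSs in all over the minus-strand genes and 67 over the plus-strand genes, and LHCA4 has the most in any list, 15 in salt replicate 1.

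PPSs were denser in the members than over all genes, and so they were in the 19 other nuclear photosynthesis genes with scores. There were 113 and 80 in control replicates 1 and 2 and 92 and 83 in salt replicates 1 and 2. A PPS was found in 28 of 32 members (87.5%) in control replicate 1, 23 (71.9%) in control replicate 2, 26 (81.3%) in salt replicate 1 and 19 (59.4%) in salt replicate 2, beside 51.4%, 45.8%, 52.6% and 40.9% of all genes. Between 12.3% and 16.0% of the bases of the members lay under a PPS, against 3.80% to 5.16% over all genes. Per kb there were 2.01 to 2.83 PPSs against 0.667 to 0.905. The median PPS of the members was 57 to 62 nt long. Of the 19 other nuclear photosynthesis genes, 78.9% and 73.7% had a PPS in control and 78.9% and 57.9% in salt. There, 7.05% to 10.9% of the bases lay under a PPS, with 1.34 to 1.93 PPSs per kb. The members also had scores at more of their bases than other genes (above), and the part of coverage in this density was not tested. In RNA of pooled nuclei, fewer cells of a type and less RNA per cell cannot be told apart.

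Any PPS in any list was found in 30 of 32 members, and in 66.5% of all genes. The exceptions were LHB1B1 and Lhca6. PSAH-1 had 1 PPS, in salt replicate 1. PPSs in each of the 4 lists were found in 11 members (34.4%), against 21% of all genes. PPSs of both replicates overlapped in 21 members (65.6%) in control- and in 18 (56.3%) in salt-treated tissue, against 35.6% and 34.2% of all genes. With calls that occurred in 1 list only, those counts were 3 (9.38%) and 0, against 7.98% and 0.32%, so the overlap of replicates rested almost wholly on shared calls. With all calls, replicates overlapped in 68.4% of the 19 other nuclear photosynthesis genes in control and in 52.6% in salt, close to the members.

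LHCA4, which pairs with LHCA1 in the LHCI belt, had the most PPSs, with 10 and 8 in control and 15 and 7 in salt, and they covered 25.6% to 46.6% of the gene. Of its 19 distinct calls, 4 were in all 4 lists. The shared call with the highest score (27.18) spanned 39 nt of the CDS, chr3:17493843-17493881, and was called in dsRNase libraries. Its central 30 bases on the gene strand are shown, with C in capitals, to show a site found in every list, beside those of the calls of LHCA2 and PSBP-1 that were in the most lists (the highest score among equals).
LHCA4: aCgCaagaggCCaaggagaaagagCtagCa
LHCA2: tgatagtgatCCattgattgggatttatga
PSBP-1: tCCtaCaCCagagCgCattggCttCatCag

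The LHCA4 bases are chr3:17493847-17493876 (minus strand), and the mean structure score over the call was -0.55 in control- and 0.08 in salt-treated tissue. This call lay on the strand of the gene in salt replicate 2 and on the opposite strand in the other lists. The LHCA2 bases (chr3:22745897-22745926, plus strand) belong to a 138-nt call that lay wholly in an intron and was found in control replicate 1 and both salt lists. LHCA2 had 8 and 0 PPSs in control and 5 and 8 in salt. The PSBP-1 bases (chr1:2047959-2047988, plus strand) belong to a 152-nt call of which 110 nt lay in the CDS and 42 nt in the 5′ UTR, found in both salt lists on opposite strands and in neither control list. PSBP-1, an extrinsic protein of the oxygen-evolving complex, had 5 and 0 PPSs in control and 5 and 10 in salt. PSAF, the luminal docking site of plastocyanin, had 7 and 10 in control and 8 and 2 in salt, and PSAK had 8 and 4 in control and 4 and 5 in salt.

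In the LHCB1 family the counts were low. CAB2 had 1 and 2 PPSs in control and 1 and 0 in salt, CAB3 had 1 and 2 against 3 and 0, CAB1 had 5 and 0 against 1 and 1, and LHB1B2 had 2 and 3 against 2 and 0. LHCB2.1 had 3 and 3 against 5 and 0, and LHCB2.2 had 3 and 4 against 4 and 1. In none of these genes did both lists of one condition exceed both lists of the other.

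Every control list exceeded every salt list in 6 members (18.8%), beside 9.65% of all genes, and the reverse was found in 1 member (3.13%), beside 6.77%. The 6 were PSAD-2 (6 and 6 against 3 and 0), LHCA1 (5 and 5 against 4 and 0), PSAO (3 and 3 against 2 and 1), NPQ4 (3 and 2 against 0 and 0), PSBY (2 and 2 against 0 and 0) and PSAG (1 and 1 against 0 and 0). All but NPQ4 lie on the minus strand, where salt replicate 2 had a total of 16 PPSs over the 17 members. The 1 member with more in salt was PSAH2 (2 and 2 against 3 and 5), and its counts on the strand of the gene overlapped (2 and 2 against 3 and 2). With PPSs on the strand of the gene only, NPQ4 and PSAG were the 2 members left (6.25%), beside 6.21% of all genes, and both salt lists exceeded both control lists in 6 others (18.8%), beside 9.61%. Those 6 were LHCB4.1, LHCB5, LHCA4, PSAE-1, PSAL and PSBP-1, so the direction of the count changed with the strands counted. The control counts of a gene are also not independent of each other. In PSAD-2, PSBY and PSAG, every control call had the same position and score in both control lists, and in NPQ4 every control call but 1. Without calls shared between lists, no member had every control list above every salt list or the reverse. That filter takes out the calls that both control lists share, so this loss is partly built in. The share over all genes is not given for it.

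A larger share of intron bases lay under a PPS in the members than over all genes. Of the 24 members with an intron, 16 and 11 had a bound intron base in control replicates 1 and 2, and 17 and 16 in salt replicates 1 and 2. These are 66.7% and 45.8%, and 70.8% and 66.7%, against 22.7% and 20.7%, and 24.6% and 19.6%, of 9622 genes with introns. The share of intron bases under a PPS was 18.9% and 14.9% in control and 21.2% and 23.5% in salt, against 1.76% to 2.22% over all genes. The members' introns are short, with a median of 310.5 nt per gene against 901 nt. The part of intron length was not tested. In the CDS, 19.6% and 14.8% of the bases were under a PPS in control and 14.0% and 12.4% in salt. Both control lists were thus above both salt lists in the CDS and below them in introns, an order that 2 lists against 2 cannot test. Over the minus-strand members alone the intron order did not hold, and salt replicate 2 had the fewest bound intron bases there. The part of the gene strand in either order was not tested. Over all genes the CDS shares were 8.57% and 6.50% in control and 7.27% and 6.23% in salt, which overlap. Relative to their share of the gene, PPS bases of the members were depleted in the 5′ UTR (log2 of -2.89 and -1.94 in control, -1.75 and -1.43 in salt) and in the 3′ UTR (-1.06 and -1.17, -0.62 and -1.30). Over all genes both UTRs were depleted too, with -1.07 to -0.47 in the 5′ UTR and -1.07 to -0.92 in the 3′ UTR. For the CDS the log2 was 0.30 and 0.27 in control and 0.03 and -0.03 in salt, against 0.67 to 0.72 over all genes. For introns the same measure was 0.25 and 0.28 in control and 0.63 and 0.89 in salt, and over all genes it was -1.27 to -1.04.

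The most extensively bound introns were those of PSBR, with 77.4% and 67.2% of intron bases in control and 0 and 86.1% in salt, and of LHCA4, with 73.5% and 53.0% in control and 73.2% and 41.9% in salt. In PSBQ-2 the shares were alike in the 4 lists, at 29.6%, 30.1%, 31.2% and 26.5%, and the same 102 intron bases were bound in all 4. The introns of LHCB2.2, Lhca6, PSAH-1, NPQ4 and PSBW held no PPS. Of the 227 distinct calls, 146 lay mainly in the CDS, 58 in introns, 18 in the 3′ UTR and 5 in the 5′ UTR.

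**Figure D5:**
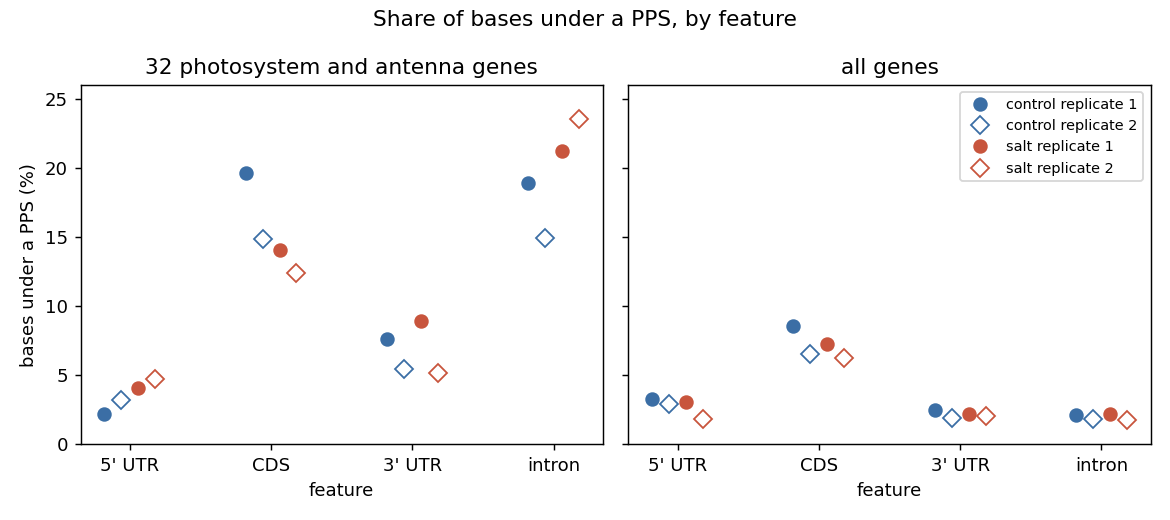
Percent of bases under a PPS (vertical axis) in the 5′ UTR, CDS, 3′ UTR and introns (horizontal axis), for the 32 photosystem and antenna genes on the left and all genes on the right, with blue for control, red for salt, filled circles for replicate 1 and open diamonds for replicate 2. In the members the intron values reach 23.5%, while over all genes no intron value exceeds 2.22%.

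The share of member PPSs on the strand of the gene was 34.5% and 61.3% in control replicates 1 and 2 and 82.6% and 60.2% in salt replicates 1 and 2, against 39.1%, 72.4%, 83.5% and 56.9% over all genes. PPSs called only in dsRNase libraries made up 60.2% and 42.5% in control and 43.5% and 48.2% in salt. In salt replicate 1 this share was lower in the members than over all genes, where it was 56.4%.

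The structure of bound and unbound bases of the same mRNA differed little at the median. The median difference (bound minus unbound) was -0.09 over 29 members in control- and -0.03 over 27 members in salt-treated tissue, with bound bases higher in 11 (37.9%) and 13 (48.1%). Over all genes the medians were -0.30 and -0.19, and bound bases were higher in 29.2% and 35.2%. PSAD-2 had the largest gap in both conditions. Its bound bases scored -0.88 and its unbound bases 0.37 in control, and -0.53 and 0.15 in salt. PSAH2 had the widest gap in the other direction in salt, with 0.40 against -0.17.

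The 11 listed loci without structure scores were read for PPSs over their RefSeq spans. LHCB2.3 had 3 and 1 in control and 4 and 7 in salt, and PSBO2, the second PSBO copy, had 3 and 3 against 5 and 1. PSBX had 3 and 3 against 2 and 1, LHCB4.2 had 3 and 0 against 1 and 4, Lhca5 had 2 and 1 against 2 and 2, and PSAD-1 had 2 and 2 against 1 and 0. PSBTN had 2 and 2 against 1 and 0, PSAE-2 had 1 in each list, PSAN had 0 and 3 against 1 and 0, PSBQA had 1 and 0 against 0 and 0, and LHCB4.3 had none. PSAD-1 is 88.0% identical to PSAD-2 in the aligned CDS, PSBO2 83.8% to PSBO1 and PSAE-2 79.5% to PSAE-1.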

How the data were processed

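PIP-seq was measured in 16 libraries, 2 replicates of 4 libraries per condition, grouped by their labels. The authors trimmed reads with cutadapt (version 1.2.1 per the labels), mapped them strand-specifically to TAIR10 with TopHat2 2.0.10, allowing several places per read, and called PPSs by CSAR, adapted to RNA, keeping those under a 5% false discovery rate. The deposited score of a PPS is its enrichment score. The deposited structure score is a generalized log ratio of merged replicates, standardized by coverage and scaled to the spliced transcript. No deposited table gives read counts, so depth is unknown. Members and lists were chosen with earlier results of these data known.

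Region means used the lowest-numbered isoform and regions with at least 30 scored bases in both conditions. The scored bases of control and salt were not matched. In the 3′ UTR of NPQ4, for example, 69 of 189 nt were scored in control and 109 in salt. PPSs were assigned to the span of a gene by an overlap of 1 nt on either strand. Full values are given for the 5 members with most PPSs, the 3 largest rises and falls per region, the LHCB1 and LHCB2 genes, and members without PPSs or scores. Other members were named after their values were seen. Sequences and symbols came from RefSeq TAIR10.1, where all 32 member CDSs open with a start and end with a stop codon at the deposited TAIR10 positions. Python 3.11.15, NumPy 2.4.6, Biopython 1.88 and matplotlib 3.10.9 were used, and the steps were tested on simulated data. Structure tables of lncRNAs were not used here.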

Additional observations from a re-analysis of the deposited data

How the results depend on the processing

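No paired analysis was possible because the structure scores were merged over replicates and the comparisons of PPS lists came from no test. Across the alternatives, 157 summary results were rated as unchanged and 40 as moved, and 13 values of single members were rated as moved. Means and medians were rated against their spread. Counts were rated by a fixed ratio to the main count, and single members by a shift of 0.5. Of the 157, 3 near 0 changed sign. The median 5′ UTR difference was -0.08 with the isoform that has the most scored bases, and the CDS enrichment of PPSs (0.14) was -0.015 with the higher-scoring PPSs and -0.019 in plus-strand members. With 80% of a region scored, the 5′ UTR kept 2 members (median difference -0.54, 0 higher and 2 lower, 0 called higher and 1 called lower), 8 members were called lower in the 3′ UTR, and the median CDS minus 5′ UTR was -0.53 in control and 0.10 in salt, since fewer genes were left. With medians over bases in place of means, the median difference was 0.16 in the CDS, where 1 member was called higher, and -0.48 in the 3′ UTR. With the isoform that has the most scored bases, the 5′ UTR difference of LHCA3 turned from 0.56 to -0.16. With PPSs on the strand of the gene only, the mean per member and list was 1.38 in control and 1.97 in salt, the 3′ UTR enrichment was -1.35, and control lists exceeded salt lists in 2 members and the reverse in 6. With PPSs of at least 30 nt, the salt mean was 2.44 and salt lists exceeded control lists in 0 members. With only the higher-scoring PPSs of each list (over its median), the means were 1.59 and 1.55, replicates overlapped in 13 members in control, salt lists exceeded control lists in 2, and bound minus unbound was -0.25 in control and -0.19 in salt. Without calls shared between lists, the means were 0.953 and 0.875, replicates overlapped in 3 and 0 members, neither condition exceeded the other in any (0 and 0), and bound minus unbound in salt was -0.20. That filter takes out calls shared by both lists of a condition, so fewer overlaps are partly built in. Without replicate 1 or 2, bound minus unbound in control ranged from -0.20 to -0.14. The split by gene strand was chosen after seeing the data. Plus-strand members had a salt mean of 3.27 and overlapping replicates in 6 members in control and 11 in salt, and control exceeded salt in 1. Minus-strand members had a salt mean of 2.26, overlapping replicates in 7 members in salt, salt above control in 0, and a 3′ UTR enrichment of -1.34. The cause of these shifts was not tested. The alternatives were run on the members alone, so the counts in this section have no share over all genes beside them. Shares were given above only for PPSs on the strand of the gene and for overlaps of unshared calls. The other counts are not read against a background. Depth is unknown, so no counting error can be given.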
